A study of Saccharomyces cerevisiae with 26 samples.

Results

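Mating in budding yeast (Saccharomyces cerevisiae) ends with 2 fusions, that of the cells and that of their nuclei, the second called karyogamy. Pheromone bound by its receptor acts through a G protein and a MAP kinase cascade on the transcription factor Ste12, which turns on mating genes. Some of their products work at the tip of the mating projection, where walls are removed and plasma membranes join, and others at the nuclear envelope. FUS1, FUS2, FIG1, PRM1, PRM3, PRM8, KAR4 and KAR5, 8 genes listed under these steps, are described here by polymerase occupancy and RNA. They were chosen by name, among 6002 genes with a strand in the RefSeq annotation of the R64 assembly, of which 5959, these 8 included, could be placed in the deposited files.

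Of the study's 26 libraries, 16 were used, 8 of DNA bound by Rpb3, a subunit of RNA polymerase II, and 8 of strand-specific RNA after depletion of ribosomal RNA. Each assay had 4 groups of 2 libraries: WT and a mutant whose strain label is fkh1Δfkh2Δ2C, each grown asynchronously in YEPD or held in G1 with the pheromone α-factor for 4 hours. FKH1 and FKH2 encode Forkhead transcription factors, the labels do not explain 2C, and the mutant's sample titles repeat fkh1Δ in place of fkh2Δ. The labels do not say whether the 2 libraries of a group came from separate cultures, so p-values measure the spread between these libraries, which may be technical.

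FKH1 had an Rpb3 signal of 35.1 and 39.0 in asynchronous WT and 41.0 and 27.7 in arrested WT, against 1.32 to 7.26 in the 4 mutant Rpb3 libraries. Its RNA was listed at 0 in the 3 mutant RNA libraries usable for its strand and was 0.590 in asynchronous and 0.0772 and 0.286 in arrested WT. FKH2 was low in the mutant in part of the gene: along its last 700 bp, a length set from these values, Rpb3 was 27.5 to 39.3 in WT and 1.16 to 4.44 in the mutant, and the rest of the gene held 27.4 to 38.2 in WT and more, 48.5 to 60.4, in the mutant. RNA over all of FKH2 was 0.628 in asynchronous and 0.230 and 0.159 in arrested WT, against 1.26 in the asynchronous and 0.579 and 1.34 in the arrested mutant. BAR1, the protease of a-type cells that breaks down α-factor, was at 0 in all 16 libraries, controls included, although the labels name no change of it. RNA of the a-type receptor gene STE2 was present in every library, at 5.38 to 16.1, and RNA of the α-type genes STE3, MF(ALPHA)1 and MF(ALPHA)2 was at most 0.214. The fourth α-type marker, the agglutinin gene SAG1, had RNA of 0.353 in the usable asynchronous WT library and 2.13 and 0.871 in arrested WT, and of 0.256, 4.99 and 3.10 in the mutant. In arrested WT, 12 of 16 markers of S phase and mitosis were called lower in Rpb3 and 8 of 15 tested in RNA (limma, adjusted p under 0.05). Of all genes tested, 1.38% and 1.16% were called lower. In the arrested mutant 5 and 2 of these markers were called lower, against 0.559% and 0.224% of all genes tested. Their median changes there were -0.68 in Rpb3 and -1.51 in RNA, with 1 marker above 0 in each assay. RNA of the mitotic cyclin gene CLB2 was 1.23 and 1.57 in the arrested mutant against 0.112 and 0.0460 in arrested WT. The part of these differences between the strains in the results below was not tested.

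A level is the mean of the authors' normalized signal over the 50 bp bins of a gene, and so is per length; for RNA it is the sense strand. Depth is unknown. Changes are differences of log2 of the level plus a pseudocount, 4.01 for Rpb3 and 0.0638 for RNA, which understates the changes of low genes. They were tested with limma over 5363 genes in each assay, with p-values adjusted by Benjamini-Hochberg and 0.05 as the threshold. All 8 genes passed the filter on low values, which takes the mean over all libraries, arrested ones included. In asynchronous WT, Rpb3 at FIG1 (21.6), FUS2 (22.1) and PRM3 (25.4) was under the filter's floor of 27.4. RNA of FIG1 (0.0589) and FUS2 (0.0644) was under its floor of 0.0799. Their passing thus rested on other libraries, the arrested ones among them. Errors of changes are standard errors from the limma fit, with n = 2 libraries a group. Asynchronous RNA of Crick-strand genes is the exception, with 1 usable library per strain. In these bulk samples, more RNA per cell and more cells with the RNA cannot be told apart.

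The 8 genes lie on 6 chromosomes. Positions are those of their bins in the deposited files, which name no genome build. FUS1 (YCL027W, chromosome III, 71801 to 73350) encodes a membrane protein of the projection tip needed for cell fusion. FUS2 (YMR232W, chromosome XIII, 736901 to 738950) encodes a fusion protein that acts at the tip with Rvs161. FIG1 (YBR040W, chromosome II, 316951 to 317850) encodes a membrane protein needed for efficient mating and calcium uptake. PRM1 (YNL279W, chromosome XIV, 110901 to 112900) encodes a membrane protein of plasma membrane fusion. PRM8 (YGL053W, chromosome VII, 402601 to 403300) encodes a pheromone-regulated membrane protein from a family of similar proteins. PRM3 (YPL192C, chromosome XVI, 182651 to 183050) and KAR5 (YMR065W, chromosome XIII, 399701 to 401200) encode nuclear envelope proteins needed for nuclear fusion. KAR4 (YCL055W, chromosome III, 27951 to 28950) encodes a transcription factor that works with Ste12 on karyogamy genes. PRM3 is on the Crick strand and the other 7 on the Watson strand.

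In WT, all 8 genes rose in both assays when cells were held with α-factor. Rpb3 rose most at FIG1, by 3.34 ± 0.22 on the log2 scale, and least at KAR5, by 1.07 ± 0.12. RNA rose most for PRM1, by 5.91 ± 0.37, and least for KAR5, by 2.45 ± 0.31. Over all genes tested 2.48% rose and 1.38% fell in Rpb3, 0.914% rose and 1.16% fell in RNA, and the median change was -0.02 and -0.18. For the 8 genes the median change was 2.97 in Rpb3 and 4.28 in RNA. Rpb3 called 133 genes higher and 74 lower in all, and RNA 49 and 62.

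**Figure D1:**
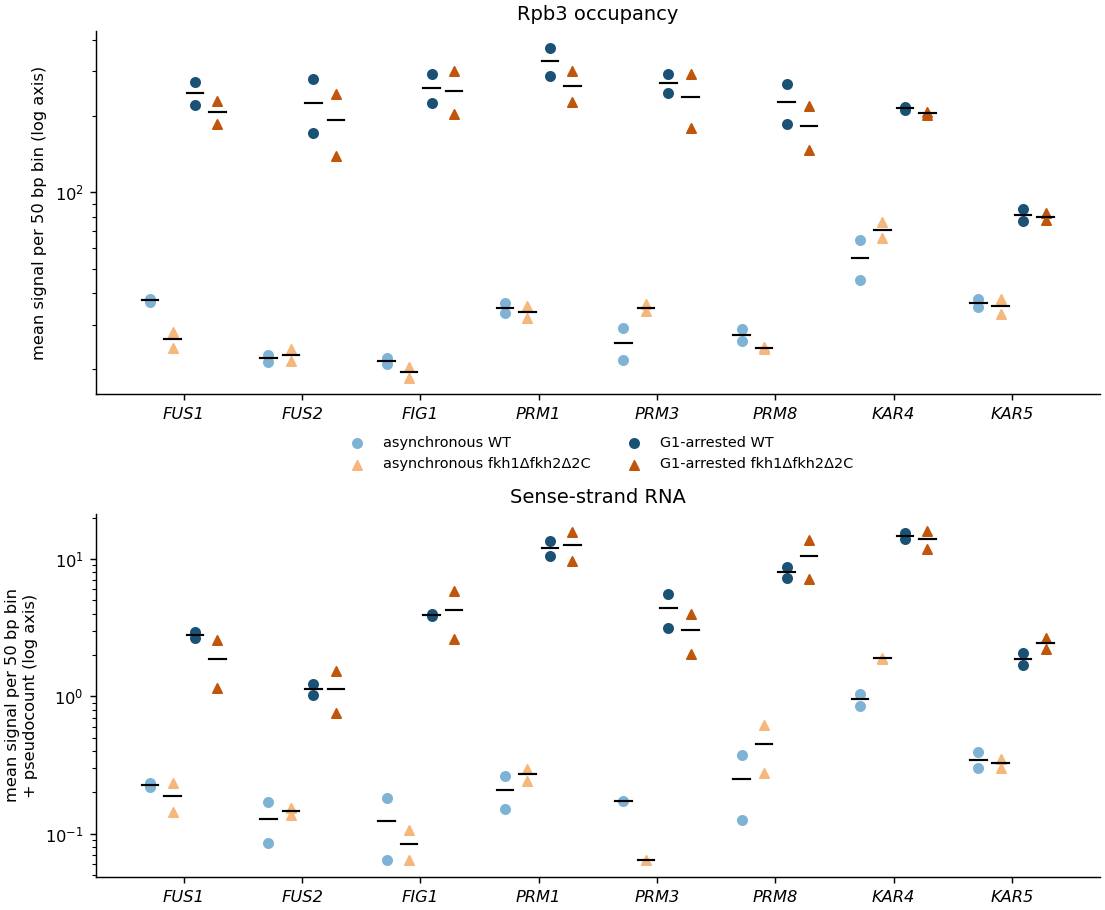
Level of each gene in every library, as mean signal per 50 bp bin on a log axis, for Rpb3 (top) and sense RNA plus the pseudocount of 0.0638 (bottom). Circles are WT, triangles fkh1Δfkh2Δ2C, pale colours asynchronous and dark colours G1-arrested cells, and black bars are group means. For every gene the arrested libraries of a strain lie above its asynchronous ones.

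Among the genes of cell fusion, FUS1 held Rpb3 signals of 37.0 and 38.0 in asynchronous WT and 220.1 and 271 in arrested WT. Its change of 2.58 ± 0.19 passed the test (limma, adjusted p = 0.00161). FUS1 RNA was 0.170 and 0.154 in asynchronous and 2.87 and 2.58 in arrested WT, a change of 3.63 ± 0.44 (limma, adjusted p = 0.00562). In both assays the arrested libraries lay far above the asynchronous ones.

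FUS2 went from Rpb3 signals of 22.8 and 21.4 to 171 and 279, a change of 3.09 ± 0.32 (limma, adjusted p = 0.00466). Its RNA went from 0.0215 and 0.107 to 1.17 and 0.951, a change of 3.21 ± 0.48 (limma, adjusted p = 0.0124). FUS2 had the widest gap between the arrested WT Rpb3 libraries, yet both were above every asynchronous one. FIG1 rose in Rpb3 from 21.0 and 22.2 to 224 and 292 (limma, adjusted p = 0.00161). FIG1 RNA was listed at 0 in asynchronous replicate 1 and was 0.118 in replicate 2, against 3.88 and 3.79 in arrested cells. That change of 5.18 ± 0.57 (limma, adjusted p = 0.00330) rests on the pseudocount for its size.

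PRM1 had the highest Rpb3 level of the 8 in arrested WT, 288 and 371, from 33.5 and 36.6 in asynchronous cells. The change was 3.08 ± 0.23 (limma, adjusted p = 0.00161). PRM1 RNA went from 0.0880 and 0.198 to 10.5 and 13.5 (limma, adjusted p = 0.000246). PRM8, listed with the fusion genes but described only as pheromone-regulated, rose in Rpb3 from 28.9 and 25.96 to 185 and 268. That change was 2.85 ± 0.25 (limma, adjusted p = 0.00275). PRM8 RNA rose from 0.313 and 0.0629 to 7.17 and 8.65, by 5.18 ± 0.58 (limma, adjusted p = 0.00330). No asynchronous library of either gene came near the arrested ones. PRM8 has 3 of its 14 bins at 0 in all 8 Rpb3 libraries, which is true of at least 1 bin in 1.06% of the genes tested. Because its family holds similar genes, such as PRM9 and its neighbour MST27, the assignment of reads to PRM8 is uncertain.

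Among the genes of nuclear fusion, PRM3 went from Rpb3 signals of 21.8 and 29.1 in asynchronous WT to 246 and 292 in arrested WT, by 3.22 ± 0.27 (limma, adjusted p = 0.00262). Crick-strand genes have 1 usable asynchronous RNA library per strain, replicate 2. PRM3 RNA was 0.110 there and 3.10 and 5.53 in arrested WT (change 4.60 ± 0.56, limma, adjusted p = 0.0119). KAR5 changed least of the 8, from 35.3 and 38.0 to 76.7 and 85.6 in Rpb3 (limma, adjusted p = 0.00596) and from 0.330 and 0.235 to 1.62 and 2.02 in RNA (limma, adjusted p = 0.00669). Its groups did not overlap either.

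KAR4, the transcription factor of the group, was the highest of the 8 in asynchronous WT in both assays. Its Rpb3 signal was 45.1 and 65.0, and 212 and 218 after arrest, a change of 1.91 ± 0.23 (limma, adjusted p = 0.00826). Its RNA was 0.984 and 0.785, and 13.8 and 15.4 after arrest, a change of 3.96 ± 0.25 (limma, adjusted p = 0.000246). The 2 groups were thus apart in both assays, from a higher start than for the other 7 genes.

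By rank among the 5363 genes tested, the WT Rpb3 changes stood 3rd (FIG1), 4th (PRM3), 6th (FUS2), 7th (PRM1), 9th (PRM8), 11th (FUS1), 28th (KAR4) and 85th (KAR5) from the highest. The RNA changes ranked 3rd (PRM1), 4th (PRM8), 5th (FIG1), 8th (PRM3), 16th (KAR4), 17th (FUS1), 20th (FUS2) and 50th (KAR5). For all 8 genes both arrested libraries exceeded both asynchronous ones in Rpb3, as for 15.2% of the genes tested. The same held in RNA, as for 24.1% of the genes tested, with 1 asynchronous library for PRM3 and the other Crick-strand genes. The counts of 8 depend on the number of libraries: without arrested WT replicate 2, 5 of the 8 passed in Rpb3, with KAR4, KAR5 and FUS2 missing the threshold. Without either arrested WT RNA library 2 of the 8 passed in RNA, KAR4 and PRM1. Some WT RNA calls also depend on the settings (limma): FIG1 missed the threshold with a pseudocount of 1% of the median (adjusted p = 0.0580), FUS2 and PRM3 with no filter on low values (adjusted p = 0.0593 and 0.117) and PRM8 with the median of bins (adjusted p = 0.0549).

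**Figure D2:**
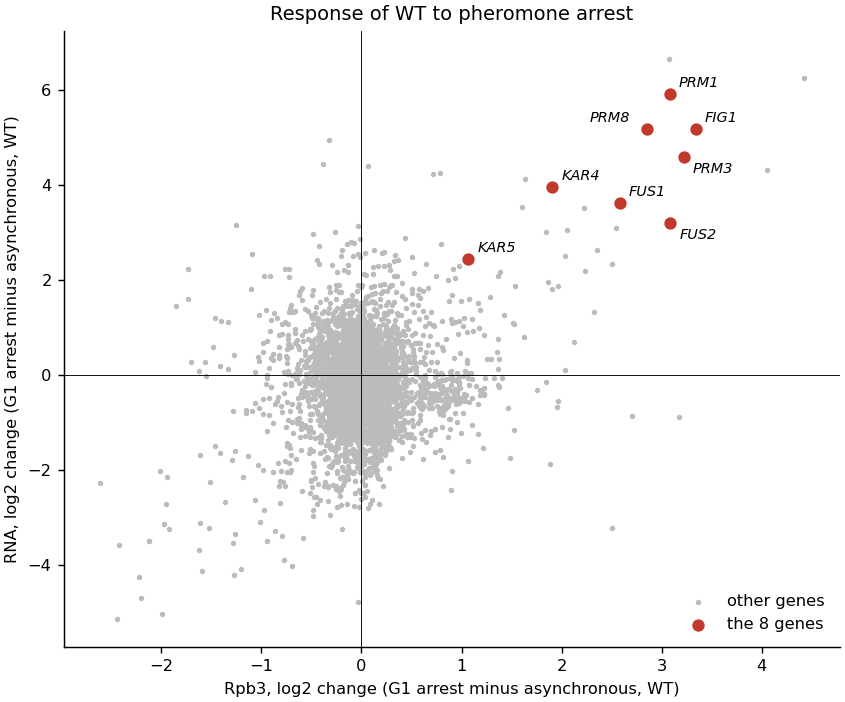
Change between asynchronous and G1-arrested WT for each gene tested in both assays, as log2 change of Rpb3 (x axis) and of sense RNA (y axis); red points are the 8 genes and grey points the others. All 8 lie in the upper right, from KAR5 (1.07 and 2.45) to FIG1 (3.34 and 5.18) and PRM1 (3.08 and 5.91).

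Before arrest the 8 genes were spread widely in polymerase occupancy. In asynchronous WT, Rpb3 at FIG1 and FUS2 lay at the 5.49th and 5.71st percentile of the placed genes, PRM3 at the 7.62nd, PRM8 at the 9.88th, and KAR4 at the 77.8th. In arrested WT 7 of them lay between the 98.6th (KAR4) and 99.5th percentile (PRM1), and KAR5 at the 91.3rd. The order of Rpb3 levels in arrested WT was PRM1, PRM3, FIG1, FUS1, PRM8, FUS2, KAR4 and KAR5. The library ranges of neighbours in that order overlapped, except between KAR4 and KAR5.

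RNA levels of the 8 were less alike than their polymerase levels. In arrested WT the mean RNA level fell from 14.6 ± 1.11 (SD, n = 2) for KAR4 and 12.03 ± 2.13 for PRM1 to 7.91 ± 1.05 for PRM8. PRM3 followed with 4.31 ± 1.72, FIG1 with 3.84 ± 0.0629 and FUS1 with 2.73 ± 0.199. KAR5 had 1.82 ± 0.282 and FUS2 1.06 ± 0.153. In this order only the ranges of PRM3 and FIG1 overlapped. FUS2 thus had the lowest RNA of the 8, at the 65.8th percentile of the placed genes, with Rpb3 at the 98.8th. The ratio of RNA level to Rpb3 level in arrested WT was 0.00472 for FUS2, at the 12.6th percentile of 5123 genes, and 0.0680 for KAR4, at the 87.2nd. The median ratio over those genes was 0.0175. The 48 other genes within the Rpb3 range of the 7 highest of the group had a median RNA level of 9.22, with quartiles of 2.60 and 22.5. Of the 7, PRM1 and KAR4 lay above that median and the other 5 below it. KAR5, outside that Rpb3 range, had a ratio of 0.0224, at the 58.5th percentile.

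**Figure D3:**
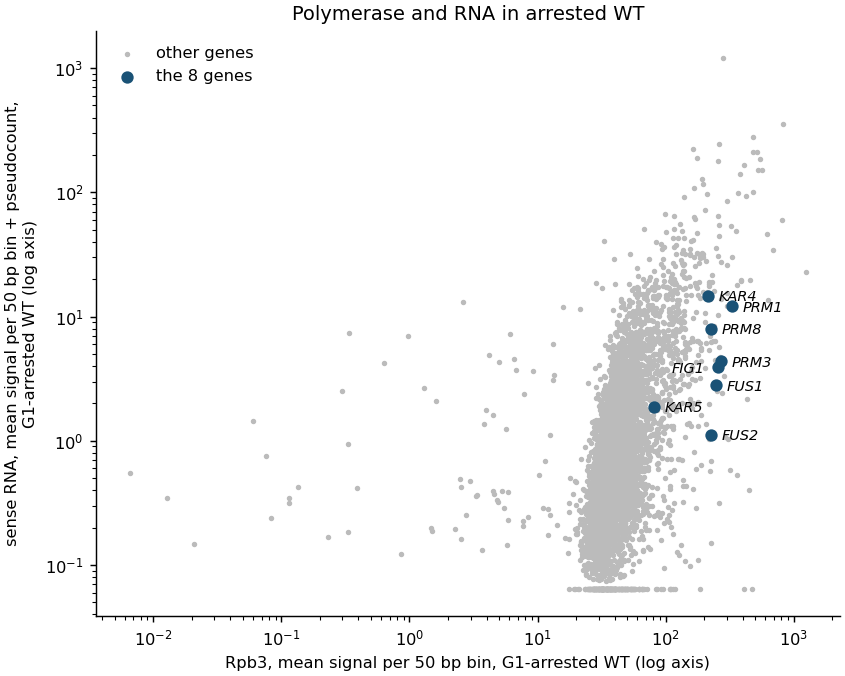
Sense RNA level plus the pseudocount of 0.0638 (y axis) against Rpb3 level (x axis) in G1-arrested WT, both as mean signal per 50 bp bin on log axes. Blue points are the 8 genes and grey points the other genes tested in at least 1 assay. At like Rpb3 levels of 215 to 330, RNA runs from 1.06 for FUS2 to 14.6 for KAR4.

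Along the genes, the raised Rpb3 signal ran past the end, and the signal before the start differed between genes. In the bin 475 bp before the start, mean WT signal rose on arrest from 36.7 to 46.9 at FUS1 and 52.9 to 57.6 at PRM1. At PRM3 it rose there from 34.4 to 48.7 and at KAR4 from 40.8 to 58.2. The rise was larger at FUS2 (25.5 to 86.3), FIG1 (46.0 to 123.9), KAR5 (35.3 to 105.5) and PRM8 (3.13 to 44.5). At FUS2, FIG1 and KAR5 that bin lies in the upstream neighbours PEP5, ATP3 and AEP1, which end 291, 457 and 242 bp away. It thus does not show where the signal of these genes began. At FIG1 mean arrested WT signal was down to 59.8 in the bin 175 bp before the start. At FUS1 the 250 bp downstream held 119% and 130% of the mean over the gene in arrested WT, and the 250 bp upstream 55.5% and 53.4%. In asynchronous WT the upstream share at FUS1 was 101% and 129%. An upstream share of 29.2% to 57.8% was seen in the arrested WT libraries at FUS1, FUS2, FIG1, PRM1, PRM3 and KAR4. Over all genes tested the median upstream share there was 88.2% and 85.2%. In asynchronous WT the share ran from 74.3% to 132% at FUS2, FIG1, PRM1 and PRM3. At KAR4 it was 84.5% and 45.0% in asynchronous WT, against 40.4% and 34.6% in arrested WT. KAR5 differed, with 135% and 135% upstream after arrest; its upstream neighbour AEP1 ends 242 bp away. At PRM8 the shares were 129% and 126% upstream and 166% and 148% downstream, beside its bins at 0.

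**Figure D4:**
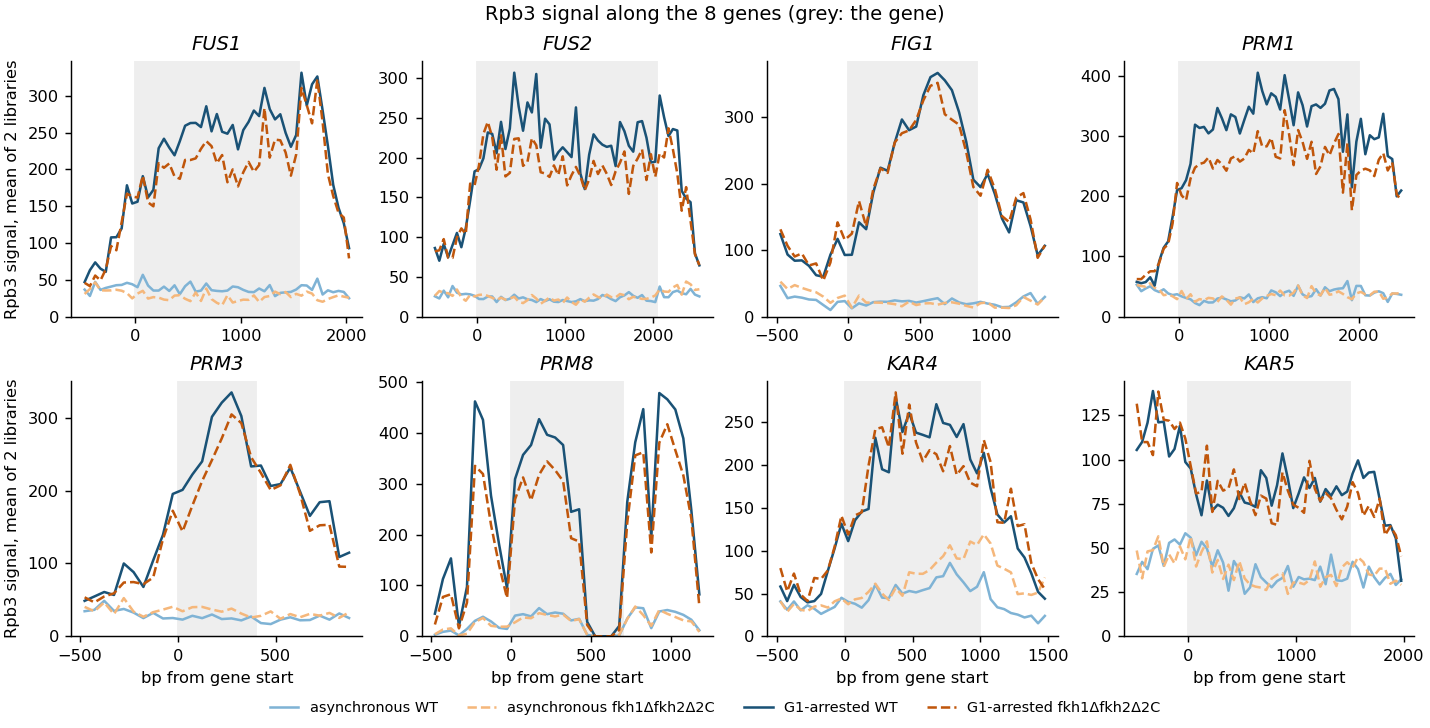
Rpb3 signal in 50 bp bins (y axis, from 0, mean of 2 libraries) against distance from the gene start in bp (x axis) for each gene, with the gene in grey. Solid lines are WT, dashed lines fkh1Δfkh2Δ2C, pale colours asynchronous and dark colours arrested cells. The arrested profiles lie above the asynchronous ones along the genes, and the 3 empty bins of PRM8 show as a gap.

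Each gene was split at its middle, and whether the arrest moved the balance between its 5′ and 3′ parts was tested over 5322 genes. Of these 0.169% moved towards the 5′ part and 0.432% towards the 3′ part. None of the 8 passed (limma; 5 of 8 did at an unadjusted p under 0.05, as did 9.81% of all genes tested). FIG1 had the largest shift of the 8. Its log2 ratio of 5′ to 3′ part was 0.05 and -0.25 in asynchronous WT and -0.65 and -0.58 in arrested WT, a difference of -0.51 ± 0.13 (limma, adjusted p = 0.166). Without asynchronous WT replicate 2 it was -0.66 and passed (limma, adjusted p = 0.0324), where 128 genes were called against 32 with all libraries.

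Rpb3 signal carries no strand, and the genes next to the 8 changed to unlike extents. Of 16 immediate neighbours 15 were tested in Rpb3, and 7 rose and 0 fell in arrested WT, with a median change of 0.57. HBN1, which converges on FUS1 with 63 bp between them in the annotation, went from 36.8 and 32.6 to 159 and 197, by 2.23 ± 0.21 (limma, adjusted p = 0.00310). HBN1 RNA, in contrast, was 0.147 in the usable asynchronous library and 0.0933 and 0 in arrested WT. MST27 next to PRM8 rose by 1.62, RSA1 next to PRM3 by 1.52, ATP3 next to FIG1 by 1.32 and PEP5 next to FUS2 by 1.23. AEP1 next to KAR5 rose by 0.57 and CAF120 next to PRM1 by 0.38. In RNA 14 neighbours were tested and 0 were called in either direction (limma).

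RNA from the strand opposite to the genes was below their sense RNA in every arrested library. In arrested WT it was highest at KAR4, with 0.849 and 0.702 against 0.0440 in the usable asynchronous WT library, and the mutant held 0.412 and 0.224 after arrest and 0.150 before. PRM8 followed, with 0.347 and 0.501 in arrested WT, 0.161 and 0.0800 in the arrested mutant and 0 in the usable asynchronous library of each strain. At the other 6 genes the opposite strand held at most 0.439 in any library, that value at PRM3. Among the placed genes, the opposite strand in arrested WT lay at the 98.6th percentile for KAR4, the 96.9th for PRM8 and the 93.1st for PRM1 and PRM3. At PRM3 it held 0.439 and 0.110 in asynchronous WT, where the sense strand held 0.110, and 0.328 and 0.281 in the asynchronous mutant, where the sense strand was listed at 0. These differences were not tested.

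In fkh1Δfkh2Δ2C the 8 genes also rose on arrest in both assays. Over all genes 1.77% rose and 0.559% fell in Rpb3 in the mutant, and 0.429% rose and 0.224% fell in RNA. The smallest Rpb3 change was again at KAR5, 1.09 ± 0.12, and the largest at FIG1, 3.42 ± 0.22, with a median of 2.75 over the 8. FIG1 held 18.6 and 20.4 in the asynchronous mutant and 204 and 299 in the arrested one. In RNA the changes ran from 2.87 ± 0.25 for KAR4 to 5.57 ± 0.57 for FIG1. The median over the 8 was 3.91, where WT had 4.28. Over 7 genes, without PRM3, it was 3.23, where WT had 3.96. PRM3 was listed at 0 in the usable asynchronous mutant library and at 1.99 and 3.94 in the arrested ones. For all 8 the arrested libraries lay above the asynchronous ones, as for 29.6% of all genes tested in Rpb3 and 19.2% in RNA. In RNA, Crick-strand genes such as PRM3 have 1 asynchronous library there. These calls rest on few libraries: without either asynchronous mutant library 0 of the 8 and 0 of all genes passed in Rpb3 (limma), and without arrested mutant replicate 2, 5 of the 8 did. In RNA 0 passed without arrested mutant replicate 2 and 2 without replicate 1. In RNA 2 also passed without either arrested WT library, and 5 without asynchronous mutant replicate 1. With a pseudocount of 1% of the median 5 passed in RNA, and with no filter 4.

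The 2 arrested libraries of a strain differed in a common direction at the 8 genes. Rpb3 was higher in replicate 2 than in replicate 1 at 8 of 8 in WT and 8 of 8 in the mutant, against 47.5% and 40.4% of all genes tested. The median difference over the 8 was 0.33 and 0.47 on the log2 scale. RNA was higher in replicate 2 for 5 of 8 in WT and 8 of 8 in the mutant, against 45.7% and 41.1% of all genes tested, with medians of 0.21 and 0.95. The part of this difference in the comparisons of the strains was not tested.

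Comparing the strains at the same stage, the test passed 0 of the 8 genes. In asynchronous cells 0% of all genes were called in either assay (limma), although 1271 in Rpb3 and 206 in RNA had an unadjusted p under 0.05. In arrested cells 0% were called in Rpb3, with 205 at an unadjusted p under 0.05. In RNA 0.0373% were higher and 0.0186% lower, with 417 at that unadjusted p. The median difference over the 8, mutant minus WT, was -0.05 in asynchronous and -0.23 in arrested cells in Rpb3, against -0.04 and -0.0069 over all genes tested. In RNA it was 0.09 and -0.03, against 0.07 and 0.09 over all genes. Without PRM3 the RNA medians were 0.27 and -0.0032.

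**Figure D5:**
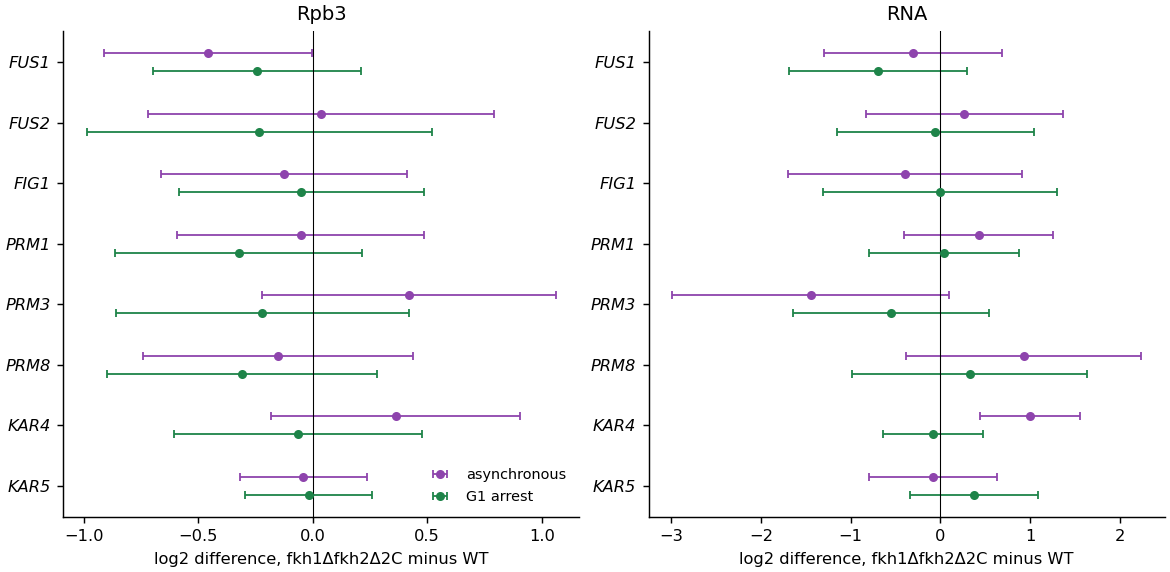
Difference between fkh1Δfkh2Δ2C and WT for each gene, as log2 difference with its 95% interval from limma (bars), in Rpb3 (left) and RNA (right), for asynchronous (purple) and G1-arrested cells (green). The intervals include 0 except for FUS1 in asynchronous Rpb3 and KAR4 in asynchronous RNA, and neither passes after adjustment.

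In arrested cells the Rpb3 differences ran from -0.32 for PRM1, with a 95% interval of -0.86 to 0.22, to -0.02 for KAR5, with an interval of -0.29 to 0.26. They were below 0 for all 8 genes, and turned above 0 for FIG1, KAR5, FUS2 or PRM3 when 1 or another arrested library was left out. PRM1 held 226 and 300.3 in the arrested mutant against 288 and 371 in arrested WT, so that the strains overlapped. They did not at KAR4, with 202 and 208 against 212 and 218; 21.3% of all genes tested had both mutant libraries lower. In RNA the differences in arrested cells ran from -0.70 for FUS1, interval -1.69 to 0.30, to 0.37 for KAR5, interval -0.34 to 1.08. Neither gene overlapped between the strains: FUS1 RNA was 1.09 and 2.50 in the arrested mutant and 2.87 and 2.58 in arrested WT, and both mutant libraries were lower in 12.1% of all genes tested. KAR5 RNA was 2.15 and 2.58 against 1.62 and 2.02, and both mutant libraries were higher in 22.9%.

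Of the 8 genes before arrest, KAR4 RNA gave the lowest unadjusted p. Its RNA was 1.79 and 1.85 in the asynchronous mutant against 0.984 and 0.785 in asynchronous WT, without overlap, as in 39.3% of all genes tested. That share includes Crick-strand genes, whose 1 usable library per strain is apart whenever the values differ. It is thus not a like share for KAR4, which has 2 libraries per strain. The KAR4 difference of 1.00 ± 0.25, with an interval of 0.44 to 1.56, had an unadjusted p of 0.00308. It did not pass (limma, adjusted p = 0.9996). With the median of the bins as the level it was 0.88 and passed (limma, adjusted p = 0.0445), where 204 genes were called; the other alternatives gave adjusted p from 0.282 upward. Rpb3 at KAR4 was 65.9 and 76.0 in the asynchronous mutant and 45.1 and 65.0 in WT, without overlap, as in 24.5% of all genes tested, a difference of 0.36 ± 0.23 (limma, adjusted p = 0.316). Without asynchronous WT replicate 2 the Rpb3 difference was 0.61 and passed (limma, adjusted p = 0.00578), as it did for 2612 genes. The excess lay towards the 3′ end of KAR4. At 425 bp from the start mean Rpb3 was 47.4 in the asynchronous mutant and 49.9 in WT, and at 925 bp 110.8 and 52.9. The log2 ratio of 5′ to 3′ part was -0.77 and -0.80 in the asynchronous mutant and -0.06 and -0.66 in WT, a difference not tested. In the 250 bp past the end of KAR4 the asynchronous mutant held 83.7 and 102, and asynchronous WT 39.1 and 45.5.

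FUS1 held less Rpb3 in the asynchronous mutant, 24.3 and 28.2 against 37.0 and 38.0, without overlap, as in 35.1% of all genes tested. The difference of -0.46 ± 0.19 had an unadjusted p of 0.0480 (limma, adjusted p = 0.210). Both neighbours of FUS1 were lower too, without overlap. RNQ1 held 31.3 and 31.2 against 41.8 and 41.0, a difference of -0.36 ± 0.09 (limma, adjusted p = 0.194). HBN1 held 24.8 and 25.4 against 36.8 and 32.6, a difference of -0.41 ± 0.21 (limma, adjusted p = 0.248). FIG1, with 18.6 and 20.4 against 21.0 and 22.2, and PRM8, with 24.1 and 24.4 against 28.9 and 25.96, were also lower without overlap. FUS1 RNA was 0.0800 and 0.169 in the asynchronous mutant and 0.170 and 0.154 in WT, which overlapped. PRM3 Rpb3 was 33.9 and 36.2 in the asynchronous mutant and 21.8 and 29.1 in WT, a difference of 0.42 ± 0.27 (limma, adjusted p = 0.323). The groups did not overlap there, as at KAR4. Its RNA was 0 in the usable asynchronous mutant library and 0.110 in the WT one, and 29.8% of all genes tested were lower in the mutant without overlap.

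Whether the response to arrest itself differed between the strains was tested as an interaction, and 0 of the 8 genes and 0 of all genes passed in either assay (limma), with 290 genes in Rpb3 and 220 in RNA at an unadjusted p under 0.05. KAR4 had the largest such difference of the 8 in RNA, where its response in the mutant minus that in WT was -1.08 ± 0.35, with an interval of -1.88 to -0.29 and an unadjusted p of 0.0133 (limma, adjusted p = 0.998). In Rpb3 the KAR4 response differed by -0.43 ± 0.32, with an interval of -1.19 to 0.34. Without asynchronous WT replicate 2 that was -0.67 and passed (limma, adjusted p = 0.0171), where 1832 genes were called. PRM3 had the largest Rpb3 difference, -0.64 ± 0.38, with an interval of -1.55 to 0.27. For FIG1 the intervals were -0.68 to 0.83 in Rpb3 and -1.45 to 2.23 in RNA, so that sizeable differences in either direction remain within the error.

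Other genes of the same steps moved in part. Of a list of 35 other fusion and karyogamy genes, 31 were tested in Rpb3, where 9 rose and 0 fell in arrested WT with a median change of 0.11. In RNA 3 of 35 rose and 0 fell, with a median of -0.16. In the mutant 8 of 31 rose in Rpb3 and 2 of 35 in RNA. FIG2, a cell wall protein of mating cells, rose in Rpb3 from 26.6 and 30.1 to 643 and 743 and in RNA from 0.277 and 0.520 to 37.6 and 31.0. Its changes of 4.43 ± 0.26 (limma, adjusted p = 0.00117) and 6.26 ± 0.52 (limma, adjusted p = 0.00128) exceeded those of the 8. PRM2, another pheromone-regulated membrane protein, rose by 1.64 in Rpb3 and 4.12 in RNA. The third gene to pass in RNA, RVS161, the partner of Fus2 and named after its values were seen, rose by 1.85 ± 0.28 (limma, adjusted p = 0.0289), and its Rpb3 change was 0.67 ± 0.17 (limma, adjusted p = 0.102).

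Of 19 genes of pheromone signalling and its transcription factor, 6 rose and 0 fell in Rpb3 in arrested WT, and 4 rose and 0 fell in RNA. In the mutant 3 rose in Rpb3 and 1 in RNA. SST2, which shuts the G protein off, rose by 2.03 in Rpb3 and 2.52 in RNA. FUS3, the MAP kinase, rose by 1.87 and 1.97, and STE2, the α-factor receptor, by 1.43 and 1.26. These changes were smaller than the medians of the 8 genes in the same assay.

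The Rpb3 patterns nearest to the mean pattern of the 8 genes over the 8 libraries belonged to VID28, PRM6, HBN1, ASG7 and YER187W. Their distances, the root mean square difference of log2 levels centred per gene, were 0.156, 0.170, 0.186, 0.195 and 0.204, against a median of 1.31 over all genes. The distances of the 8 themselves ran from 0.159 for PRM8 to 0.746 for KAR5. Of the 5, VID28, a subunit of a ubiquitin ligase complex, had an RNA level of 2.01 in asynchronous and 17.9 in arrested WT. ASG7, an a-specific gene, had 0.271 and 3.82, and PRM6, which encodes a membrane protein, had 0.0838 and 0.634. HBN1 and YER187W had RNA of at most 0.165 in the 2 WT group means, so that a like Rpb3 pattern came with little sense RNA there. As HBN1 converges on FUS1 and Rpb3 carries no strand, its signal cannot be told apart from that of polymerase on FUS1.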

How the data were processed

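The authors deposited tables of normalized signal in 50 bp bins, one for Rpb3 chromatin immunoprecipitation and one for stranded RNA; per the file headers a column is 1 library and, for RNA, 1 strand. No source used here says how they were normalized; the libraries of a table share nearly 1 distribution of values (mean per bin 45.3 in Rpb3, 1.20 to 1.28 in RNA, where 72.4% to 83.2% of bins are at 0). Of the RNA columns, 2 with the same name were not used, nor was the BrdU table. Gene levels are means over bins placed by the RefSeq R64 annotation, with a shift fitted per region; no shift applied to the 8 genes, and 96.2% of genes stayed at the annotation's place. Sense RNA is the R columns for Watson genes and the F columns for Crick genes.

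Levels were analysed as log2(signal + 10% of the median gene level), without the lowest 10% of genes, with limma 3.58.1 in R 4.3.3 (1 fit of 4 groups per assay, Benjamini-Hochberg adjusted, threshold 0.05), tested on simulated data. Alternatives were other pseudocounts, no filter, scaling, the median of bins, placement, a replicate block and leaving out each library. Genes named beyond the 8 are their immediate neighbours, the 5 nearest Rpb3 patterns, genes of the 2 pathway lists that passed in both assays in WT, and, outside that rule, the deleted genes, markers of mating type and cell cycle, PRM9 as background, and RVS161. The genes, lists and tests were chosen with earlier results of these data known.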

Additional observations from a re-analysis of the deposited data

How the results depend on the processing

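Each group has 2 libraries and depth is unknown, so small differences were not detectable. In both strains the rise on arrest kept its direction for all 8 genes under every alternative run, between 0.84 and 3.69 in Rpb3 and between 1.74 and 8.78 in RNA (log2). Outside single-library omissions, the count of the 8 called on arrest moved by over 1.5 times only in mutant RNA, to 5 with a pseudocount of 1% of the median and 4 with no filter. Moving genes by 1 bin was chosen after seeing the data and changed no call of the 8. The cause of the changes below was not tested.

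The replicate numbers of the titles gave correlations of deviations of 0.02 to 0.47 in Rpb3 and -0.02 to 0.14 in RNA between groups. They were over 0.1 in 4 of 6 pairs of groups in Rpb3 and 2 of 6 in RNA, not in all, so the numbers were not taken to pair the samples. With the replicate block 186 genes were called in Rpb3 and 116 in RNA for WT arrest, against 207 and 111 without it, and 113 and 44 in the mutant, against 125 and 35; it changed no call of the 8 genes.

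In RNA, the strains in G1 differed at 1 gene with a pseudocount of 50%, 5 with 1%, 1 with no filter and 94 with the median of bins, against 3. The pseudocount of 1% left 22 genes for mutant arrest against 35. With no filter 35 genes were called between the asynchronous strains and 36 for the interaction. The median of bins called 237 genes for WT arrest, 272 for mutant arrest, 204 between the asynchronous strains (1 of the 8, KAR4) and 258 for the interaction.

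With 1 library left out, where the lone library is assumed to vary like the other groups, genes called in Rpb3 ran from 19 to 2193 (WT arrest), 0 to 1086 (mutant arrest), 0 to 2612 (strains, asynchronous), 0 to 22 (strains, G1) and 0 to 1832 (interaction). Those of the 8 ran from 5 to 8, 0 to 8, 0 to 1, 0 to 0 and 0 to 1. In RNA the genes ran from 10 to 75 (WT arrest), 1 to 32 (mutant arrest) and 0 to 3 (strains, G1), and those of the 8 from 2 to 8 and 0 to 8. For the 5′ to 3′ balance 2 to 128 genes and 0 to 1 of the 8 were called, and KAR4 ran from -0.22 to 0.39.

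Differences between the strains that changed sign passed no test. By alternative, these were PRM1 in asynchronous Rpb3 (0.043) and the KAR5 Rpb3 interaction (-0.057) with the median of bins, and with it FIG1 (0.19) and PRM3 (0.17) in G1 RNA and the PRM1 RNA interaction (0.15). A pseudocount of 50% gave 0.00388 for FIG1 in G1 RNA and -0.086 for the PRM3 RNA interaction, and scaling gave -0.071 for PRM1 in G1 RNA. With 1 library left out, asynchronous Rpb3 ran from -0.13 to 0.050 at KAR5, -0.032 to 0.10 at FUS2 and -0.12 to 0.019 at PRM1. Rpb3 in G1 ran from -0.32 to 0.22 at FIG1, -0.093 to 0.058 at KAR5, -0.63 to 0.17 at FUS2 and -0.57 to 0.13 at PRM3. The Rpb3 interaction ran from -0.067 to 0.12 at KAR5, -0.20 to 0.35 at FIG1, -0.44 to 0.12 at PRM8 and -0.67 to 0.13 at FUS2. Asynchronous RNA ran from -0.28 to 0.12 at KAR5, -0.23 to 0.77 at FUS2, -1.15 to 0.36 at FIG1 and -0.65 to 0.049 at FUS1. RNA in G1 ran from -0.59 to 0.58 at FIG1, -0.55 to 0.44 at FUS2, -0.31 to 0.39 at PRM1, -0.30 to 0.14 at KAR4 and -0.14 to 0.80 at PRM8. The RNA interaction ran from -0.83 to 0.18 at FUS2, -0.78 to 0.0049 at PRM1, -0.37 to 1.14 at FIG1, -1.38 to 0.19 at PRM8 and -0.97 to 0.18 at FUS1.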
